A study of Homo sapiens with 10 samples.

Results

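The core and linker histone genes are the protein-coding rows of the count table whose symbol starts with H1-, H2AC, H2BC, H3C or H4C followed by a digit. Described here are 69 such genes among 60651 gene rows: 9 for the linker histone H1, 16 for H2A, 17 for H2B, 13 for H3 and 14 for H4. A further 14 rows with these prefixes were not protein coding and were left out. By the RefSeq annotation of GRCh38.p14, 55 of the genes lie on chromosome 6, 11 on chromosome 1, 2 on chromosome 3 and 1 on chromosome 12.

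RNA was sequenced from 2 human cell lines under a series title on the pharmacological modulation of the histone mark H3K9me2. HT29 is an established colorectal cancer line, treated with DMSO, the solvent, or with 10 µM of VXN. The line t-hESC, which the labels call transformed pluripotent stem cells, was treated with DMSO, with 1 µM of BIX or with 10 µM of VXN. Each of the 5 groups had 2 libraries, called biological replicates by the submitters. The treatment field of the labels names 48 hours of DMSO for every library, so compounds and doses were taken from the titles. VXN is a code name that is not expanded there. BIX is the usual short name of an EHMT1 and EHMT2 inhibitor, these being methyltransferases of H3K9. Each line is a single established or transformed line, and whether the replicates were separate cultures on separate days is not stated, so p-values measure the spread between these libraries only. The BIX and VXN groups of t-hESC share their DMSO libraries and differ in dose, so their values are given side by side and not compared.

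DNA is wound around octamers of the core histones H2A, H2B, H3 and H4, and linker histone H1 sits on the DNA between them. Most histone genes are replication-dependent: they lie in clusters, are transcribed as DNA is copied, and give short mRNAs without introns that end in a stem-loop instead of a poly(A) tail. A smaller number of histone genes, among them H1-10, give polyadenylated mRNA outside S phase, and some clustered genes can also end in a poly(A) tail when cells leave the cycle or when the stem-loop end is not formed. The libraries were made with a TruSeq RNA v2 kit, which as background selects RNA by its poly(A) tail. Histone mRNA with a stem-loop end is therefore captured poorly, and the counts below are mostly of the polyadenylated or incidentally captured part.

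The promoters of 64 members were available in the RefSeq table as the 250 bases before the start of the gene, and no promoter was used for H2AC12, H3C11, H3C12, H4C1 and H4C3. The letters of a TATA box (TATAAA, on either strand and at any position) were found in 42 of the 64, beside 11.1% of 27305 promoters of the same length. In H2BC4, H2BC14, H2BC17 and H2AC8 they lie only 206 to 220 bases before the start, and in H2BC4 they are those of H2AC6. A CCAAT box (CCAAT, on either strand) was found in 54, beside 33.0% of all promoters. The octamer ATTTGCAT, on either strand, stood in 26, of which 14 of 17 H2B and 11 of 15 H2A promoters, beside 1.66% of all promoters. The H1 box AAACACA, on either strand, stood in 7 of the 64, all of them among the 9 H1 promoters, beside 4.95% of all promoters. None of these motifs contains another. Genes that start head to head share most of their windows, and H3C4 and H2AC7 have the same window. A site there is counted for each gene, so the counts are not of separate stretches of DNA. The following promoters are shown for 3 members whose level was higher under VXN in HT29 and 1 whose level was lower, with those motifs in capitals, 5′ to 3′ on the strand of the named gene. H1-2 is at chr6:26056471-26056720 (minus strand), H2AC6 at chr6:26123922-26124171 (plus), H2BC21 at chr1:149886683-149886932 (minus) and H3C8 at chr6:26271414-26271663 (minus), all in GRCh38.p14.
H1-2: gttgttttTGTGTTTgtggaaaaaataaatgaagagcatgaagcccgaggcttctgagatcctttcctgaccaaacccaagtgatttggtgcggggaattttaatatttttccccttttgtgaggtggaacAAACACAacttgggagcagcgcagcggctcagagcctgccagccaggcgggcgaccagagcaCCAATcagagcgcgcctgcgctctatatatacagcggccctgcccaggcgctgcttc
H2AC6: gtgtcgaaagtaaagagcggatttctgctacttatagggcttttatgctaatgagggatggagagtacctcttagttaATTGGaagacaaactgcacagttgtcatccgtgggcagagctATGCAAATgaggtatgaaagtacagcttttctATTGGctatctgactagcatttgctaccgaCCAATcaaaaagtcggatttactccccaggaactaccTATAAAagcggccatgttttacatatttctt
H2BC21: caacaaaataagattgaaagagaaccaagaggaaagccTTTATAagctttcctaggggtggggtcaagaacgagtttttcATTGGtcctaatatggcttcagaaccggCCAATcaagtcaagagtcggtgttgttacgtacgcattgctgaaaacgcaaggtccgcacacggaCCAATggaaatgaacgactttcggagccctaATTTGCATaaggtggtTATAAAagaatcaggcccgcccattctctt
H3C8: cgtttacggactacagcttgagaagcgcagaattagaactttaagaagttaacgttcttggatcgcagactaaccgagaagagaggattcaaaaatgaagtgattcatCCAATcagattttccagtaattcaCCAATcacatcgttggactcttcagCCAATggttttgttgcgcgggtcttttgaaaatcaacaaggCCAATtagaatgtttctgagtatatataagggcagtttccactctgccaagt
The H2AC6 stretch holds a TATA box that begins 31 bases before the start, an octamer and CCAAT boxes, and it is shared with H2BC4, which starts 246 bases away on the other strand. In H2BC21 the octamer and a TATA box lie within the last 46 bases before the start, and the same stretch serves H2AC20, 236 bases away on the other strand. In H1-2 the H1 box begins 242 and 119 bases before the start and a CCAAT box lies 57 bases before the start. H3C8 has CCAAT boxes 142, 118, 93 and 52 bases before the start and neither TATAAA, the octamer nor the H1 box in this window.

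Levels are given as CPM, normalised read counts relative to the library's scaled gene total, and are not divided by gene length, so they are compared between groups and not between genes. The libraries held 13137026 to 24492838 gene counts, and where no read was counted the level can still be as high as 3 counts, which is 0.124 to 0.220 CPM. This floor covers counting error only. Libraries of one group correlated at 0.991 or more and libraries of different lines at 0.681 or less. H1-10 held 78.6% of the 67654 counts assigned to the 69 genes, and the other 68 had a median total of 42 counts over all 10 libraries. After the filter on low counts 35 members were tested, 4 of H1, 9 of H2A, 11 of H2B, 5 of H3 and 6 of H4. Of the 34 that were not tested, H2AC1, H2BC1 and H4C6 had no count in any library, 12 had a total of 1 to 9 and 19 had at least 10. The totals nearest the limit were 42 for H3C12, which was not tested, and 41 for H2AC18, which was. None of the 5 germ cell members, H1-6, H1-7, H1-8, H2AC1 and H2BC1, reached the test. Counts over the tested members below describe those members, since the filter favours genes that are high in some group.

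The labels of the lines were checked by marker genes. The 6 pluripotency markers summed to 3692 to 4177 CPM in t-hESC libraries, 4.06 and 4.33 CPM in HT29 under DMSO and 7.96 and 10.2 CPM in HT29 under VXN. The 6 colorectal markers summed to 1076 to 1430 CPM in HT29 and 6.72 to 11.2 CPM in t-hESC. The 6 fibroblast or stroma markers summed to 681 and 681 CPM in t-hESC under DMSO, 844 and 803 CPM under BIX and 948 and 950 CPM under VXN. In HT29 they summed to 2.93 and 2.26 CPM under DMSO and 8.18 and 6.44 CPM under VXN. Under VXN in HT29, 4 of the 4 tested were called higher, where 33% of all tested genes were. Of the 6 pluripotency markers 3 were called higher there and 0 lower, and of the 6 colorectal markers 1 higher and 2 lower. The part of these levels in the histone results was not tested.

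**Figure D1:**
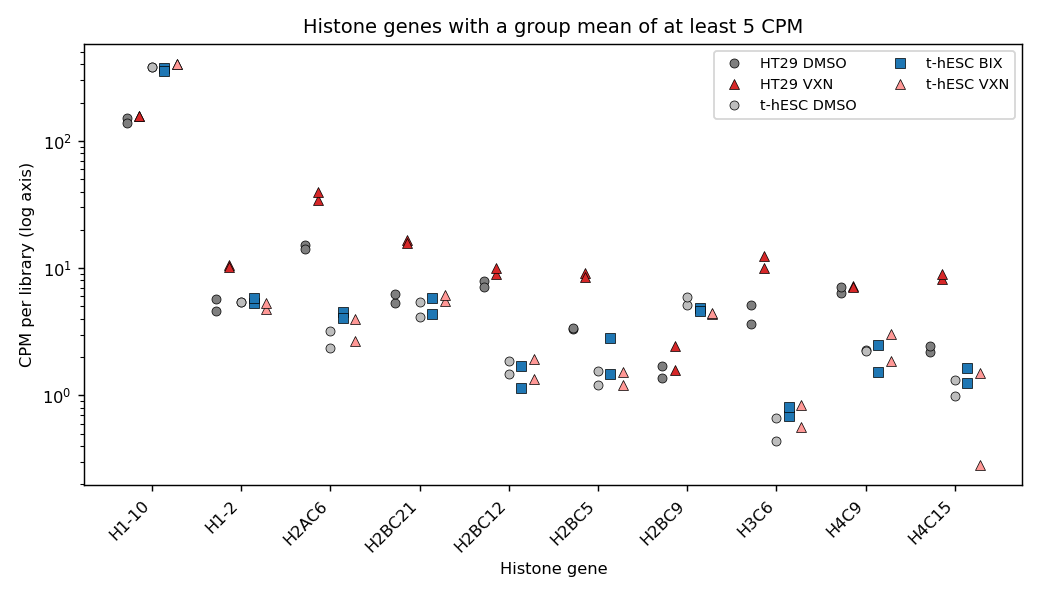
CPM per library (log axis) of the 10 histone genes with a group mean of at least 5 CPM, by group; each point is 1 library. H2AC6 reaches 34.5 and 39.4 CPM in HT29 under VXN against 15.2 and 14.3 CPM under DMSO, and H1-10 lies between 355 and 402 CPM in all t-hESC libraries.

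Under VXN, HT29 cells had a higher summed level of histone RNA, and more tested histone genes were called higher than lower. The summed level of the 68 members other than H1-10, tested or not, was 68.3 ± 0.059 CPM under DMSO and 137 ± 4.72 CPM under VXN (mean ± SD, n = 2), a ratio of 2.00. Of the 35 tested members 15 were called higher at an adjusted p under 0.05 (edgeR quasi-likelihood F test, Benjamini-Hochberg over 22495 genes), which is 42.9%, where 33% of all tested genes were called higher. Another 4 were called lower, 11.4%, where 26.9% of all genes were, and 16 were not called. In either direction 54.3% of the tested members and 60% of all genes were called. A rise of at least 2-fold was called for 12 members, 34.3%, beside 12.2% of all genes, and a fall of at least 2-fold for 3, beside 7.41% of all genes in that direction. The median log2 fold change of the tested members was 1.00, and that of all tested genes 0.055. In bulk RNA, a change in the share of cells of a kind and a change in RNA per cell cannot be told apart. DESeq2 called 9 members higher and 1 lower among 40 with an adjusted p, and without HT29 DMSO replicate 2 or VXN replicate 1 the number called lower fell to 2 and 1. With the near-identical copies on chromosome 1 summed, 14 of 33 were called higher.

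**Figure D2:**
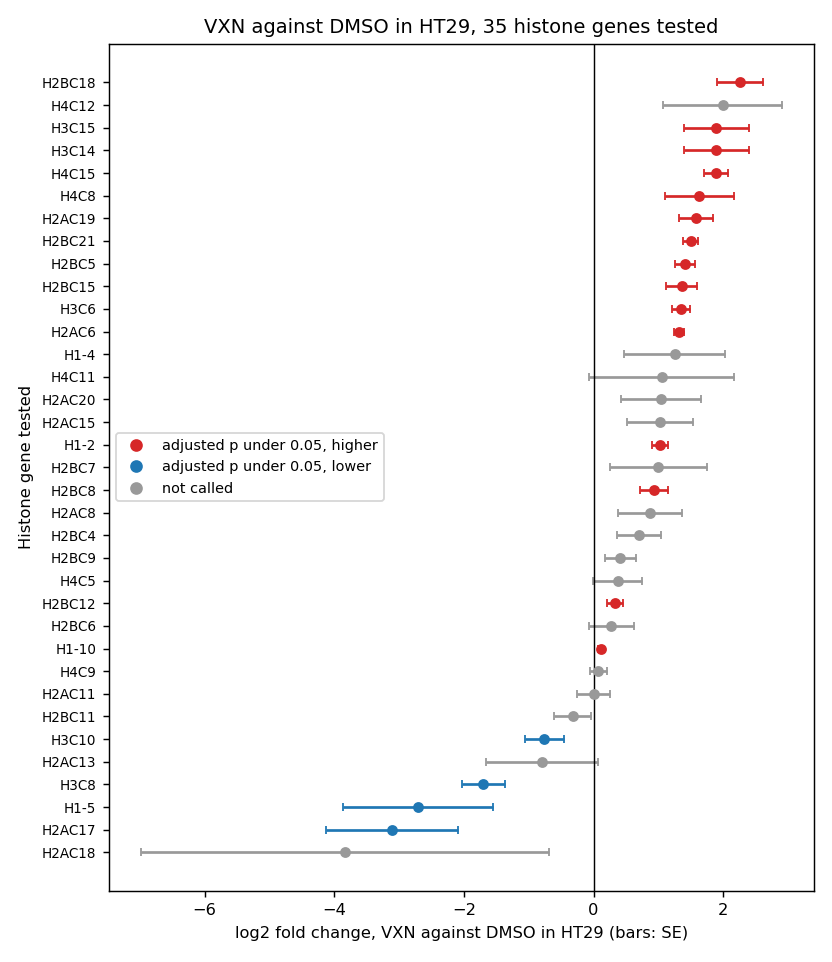
Log2 fold change of VXN against DMSO in HT29 for each of the 35 tested histone genes, with bars of 1 standard error; red and blue points passed an adjusted p of 0.05. The 15 called higher run from 0.11 for H1-10 to 2.26 for H2BC18, and the wide bars at the bottom belong to H1-5, H2AC17 and H2AC18, which have few counts in HT29.

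Among the H1 genes, 2 of 4 tested were called higher in HT29 and 1 lower. H1-2, a replication-dependent linker histone that can also be polyadenylated, was at 4.62 and 5.72 CPM under DMSO and 10.7 and 10.3 CPM under VXN, a log2 fold change of 1.02 ± 0.12 (SE, adjusted p = 3.53e-11). H1-10, a replication-independent linker histone, differed much less: 152 and 139 CPM under DMSO and 158 and 157 CPM under VXN. The 2 VXN libraries of H1-10 lay just above both DMSO libraries, at a log2 fold change of 0.11 ± 0.038 (adjusted p = 0.00833), and the call was lost without HT29 DMSO replicate 2 (adjusted p = 0.407) or VXN replicate 1 (adjusted p = 0.0939). DESeq2 did not call H1-10 (adjusted p = 0.210), nor did an edgeR fit to the compared groups alone (adjusted p = 0.0792). H1-5, a somatic linker histone, had 5 and 4 counts under DMSO and 0 and 1 under VXN. Its call as lower (adjusted p = 0.0392) was lost without HT29 DMSO replicate 1, DMSO replicate 2 or VXN replicate 1, at adjusted p-values of 0.129, 0.0742 and 0.277. H1-4 was not called (adjusted p = 0.168), at 2 and 3 counts under DMSO and 5 and 6 under VXN.

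Among the H2A genes, 2 of 9 tested were called higher and 1 lower, and the summed level of all 16 was 19.5 ± 0.58 CPM under DMSO and 44.4 ± 3.47 CPM under VXN. H2AC6, a clustered H2A gene known to give polyadenylated mRNA, was at 15.2 and 14.3 CPM under DMSO and 34.5 and 39.4 CPM under VXN. Both VXN libraries of H2AC6 were above both DMSO libraries, with a log2 fold change of 1.32 ± 0.077 (adjusted p = 4.99e-24). H2AC19 was at 1.65 and 0.854 CPM under DMSO and 3.85 and 3.7 CPM under VXN, a log2 fold change of 1.58 ± 0.26 (adjusted p = 1.32e-06). H2AC19 has a near-identical copy, H2AC18, on chromosome 1, and the division of counts between them differed between replicates: H2AC18 held 0 counts and H2AC19 held 40 in HT29 DMSO replicate 1, and each held 20 in replicate 2. Summed, the pair had 40 and 40 counts under DMSO and 88 and 74 under VXN, a log2 fold change of 1.18 ± 0.21 (adjusted p = 1.15e-06). H2AC11 was alike in both groups, at 1.52 and 1.62 CPM under DMSO and 1.57 and 1.57 CPM under VXN. H2AC17 was called lower (adjusted p = 0.00659) from 7 and 5 counts under DMSO and 0 and 1 under VXN, and was not called without VXN replicate 1 (adjusted p = 0.108).

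Of the H2B genes, 6 of 11 tested were called higher and 5 were not called. H2BC21, a gene of the chromosome 1 cluster known to give polyadenylated mRNA, was at 5.27 and 6.23 CPM under DMSO and 16.6 and 15.9 CPM under VXN. Its log2 fold change was 1.50 ± 0.11 (adjusted p = 4.01e-19), and the groups did not overlap. H2BC5, also known to give polyadenylated mRNA, was at 3.30 and 3.37 CPM under DMSO and 9.18 and 8.52 CPM under VXN, a log2 fold change of 1.41 ± 0.15 (adjusted p = 1.07e-12). H2BC12 differed far less, at 7.87 and 7.05 CPM under DMSO and 8.92 and 9.94 CPM under VXN. Its call at a log2 fold change of 0.33 ± 0.12 (adjusted p = 0.0146) was lost without HT29 DMSO replicate 2 (adjusted p = 0.152) or VXN replicate 2 (adjusted p = 0.166). The highest fold of the family was that of H2BC18, with 12 and 7 counts under DMSO and 39 and 43 under VXN and a log2 fold change of 2.26 ± 0.35 (adjusted p = 7.72e-08). H2BC15 and H2BC8 were called at 1.36 ± 0.24 and 0.93 ± 0.22. H2BC9 was not called, at 1.36 and 1.71 CPM under DMSO and 2.45 and 1.57 CPM under VXN, where the groups overlap. The summed level of all 17 H2B genes was 24.6 ± 0.057 CPM under DMSO and 48.4 ± 0.035 CPM under VXN.

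Of the 5 tested H3 genes 3 were called higher in HT29 and 2 lower, but 2 of the 3 higher calls rest on the same counts. H3C6 was at 5.11 and 3.63 CPM under DMSO and 10.1 and 12.5 CPM under VXN, a log2 fold change of 1.36 ± 0.14 (adjusted p = 1.91e-13). H3C14 and H3C15, which as background encode the H3.2 form of the protein, had the same counts as each other in every library, 5 and 5 under DMSO and 20 and 14 under VXN, and cannot be counted as separate measurements. DESeq2 called neither (adjusted p = 0.101). Their sum had a log2 fold change of 1.91 ± 0.35 (adjusted p = 2.63e-06). In the other direction, H3C8 was at 1.61 and 1.62 CPM under DMSO and 0.525 and 0.456 CPM under VXN. Both VXN libraries of H3C8 were under both DMSO libraries, a log2 fold change of -1.70 ± 0.33 (adjusted p = 7.94e-06), and it was the one lower call that DESeq2 shared. H3C10 was at 1.44 and 1.67 CPM under DMSO and 0.962 and 0.862 CPM under VXN, a log2 fold change of -0.76 ± 0.30 (adjusted p = 0.0227). That call was lost without DMSO replicate 2, VXN replicate 1 or VXN replicate 2 of HT29, at adjusted p-values of 0.124, 0.0577 and 0.100. The summed level of all 13 H3 genes was 8.38 ± 0.80 CPM under DMSO and 14.99 ± 1.16 CPM under VXN.

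Of the H4 genes, which with few exceptions encode one and the same protein, 2 of 6 tested were called higher and 4 were not called. H4C15 was at 2.18 and 2.43 CPM under DMSO and 8.27 and 8.92 CPM under VXN, a log2 fold change of 1.89 ± 0.19 (adjusted p = 1.52e-12), and summed with its near-identical copy H4C14 it was 1.88 ± 0.17. H4C8 had 7 and 4 counts under DMSO and 16 and 15 under VXN, and its call at 1.63 ± 0.53 (adjusted p = 0.00605) was lost without HT29 DMSO replicate 2 (adjusted p = 0.0857). H4C9 overlapped between the groups, at 6.43 and 7.09 CPM under DMSO and 7.17 and 7.05 CPM under VXN (log2 fold change 0.075 ± 0.13). The summed level of all 14 H4 genes was 10.2 ± 0.64 CPM under DMSO and 18.1 ± 0.092 CPM under VXN.

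**Figure D3:**
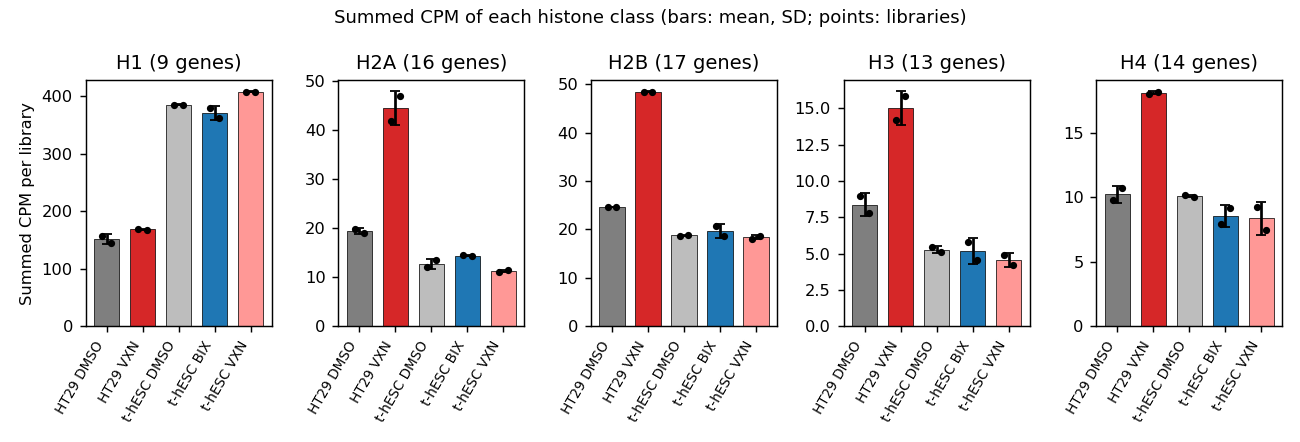
Summed CPM of all genes of each histone class, tested or not, in the 5 groups; bars are means of 2 libraries, error bars SD and points single libraries, with a separate scale for each class. In the 4 core classes both HT29 VXN libraries lie above all other libraries, for H2B at 48.4 ± 0.035 CPM against 24.6 ± 0.057 CPM under DMSO, while the H1 sum, mostly H1-10, is higher in t-hESC.

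The 6 clustered members known to give polyadenylated mRNA, H1-2, H2AC6, H2BC4, H2BC5, H2BC12 and H2BC21, summed to 37.1 and 37.2 CPM in HT29 under DMSO and 81.1 and 85.2 CPM under VXN. Of the 6, 5 were called higher, beside 42.9% of the tested members and 33% of all genes. Their median log2 fold change was 1.17, beside 1.00 for all tested members. Some RNAs that are made without a poly(A) tail were also higher in these libraries. Of 17 such RNAs 7 were tested, of which 5 were called higher, where 33% of all genes were, and 2 were not called, with a median log2 fold change of 1.28. RN7SL2, a signal recognition particle RNA, was at 0.701 and 0.598 CPM under DMSO and 2.10 and 1.77 CPM under VXN (log2 fold change 1.57 ± 0.30), and RPPH1, the RNase P RNA, was called at 1.42 ± 0.42. The 17 RNAs summed to 7.62 and 5.0 CPM under DMSO and 13.1 and 12.9 CPM under VXN, and counts in repeat families went from 4.25% and 4.31% to 5.64% and 5.64% of the library. These values moved with the histone result, and their part in it was not tested.

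In t-hESC the same dose of VXN was accompanied by a small change in the summed level. The 68 members other than H1-10 summed to 53.3 ± 0.48 CPM under DMSO and 48.9 ± 0.85 CPM under VXN. Of the 35 tested members 1 was called higher and 2 lower, 8.57% in all, where 29% of all genes were called (14.5% higher and 14.6% lower), and 7 had an unadjusted p under 0.05. H1-10 was at 379 and 379 CPM under DMSO and 402 and 401 CPM under VXN, a log2 fold change of 0.083 ± 0.033 (adjusted p = 0.0489). Both VXN libraries of H1-10 were above the DMSO libraries by a small margin. Lower levels were called for H4C11, with 77 and 110 counts under DMSO and 59 and 45 under VXN (log2 fold change -0.65 ± 0.20, adjusted p = 0.00789), and for H3C10, at 2.64 and 1.65 CPM under DMSO and 1.49 and 1.07 CPM under VXN (-0.72 ± 0.28, adjusted p = 0.0448). None of the 3 calls held in every fit. H4C11 lost the call without t-hESC DMSO replicate 2 (adjusted p = 0.163) or VXN replicate 2 (0.217). H3C10 lost it without DMSO replicate 1 (adjusted p = 0.520) or VXN replicate 2 (0.348). H1-10 lost it without any one of 8 libraries, the BIX libraries being the exceptions, at adjusted p-values from 0.0508 to 0.222. With upper-quartile factors 0 members were called higher and 2 lower.

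Other members of t-hESC were not called under VXN. H1-2 was at 5.44 and 5.42 CPM under DMSO and 4.78 and 5.30 CPM under VXN, and H2BC21 at 5.39 and 4.14 CPM and 5.50 and 6.09 CPM, where the groups of H2BC21 do not overlap but the adjusted p was 0.158. H2AC6 was at 2.36 and 3.2 CPM under DMSO and 3.95 and 2.65 CPM under VXN, with overlapping groups. H2BC9, one of the clustered members that are high in this line, was at 5.11 and 5.98 CPM under DMSO and 4.37 and 4.46 CPM under VXN (log2 fold change -0.34 ± 0.17, adjusted p = 0.132). The RNAs without a poly(A) tail summed to 6.59 and 7.11 CPM under DMSO and 7.0 and 11.2 CPM under VXN.

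With BIX, the summed level of t-hESC histone genes was close to that under DMSO. The 68 members other than H1-10 summed to 54.6 ± 0.87 CPM under BIX and 53.3 ± 0.48 CPM under DMSO. Single members were less well measured: log2 fold changes that were not called ran from -0.50 ± 0.29 for H2AC20 to 1.39 ± 0.70 for H1-5. Of the 35 tested members 1 was called higher and 1 lower, 5.71% in all, where 23.1% of all genes were called (10.9% higher and 12.2% lower), and 5 had an unadjusted p under 0.05. H2AC6 was at 2.36 and 3.2 CPM under DMSO and 4.54 and 4.04 CPM under BIX. Both BIX libraries of H2AC6 were above both DMSO libraries, a log2 fold change of 0.61 ± 0.20 (adjusted p = 0.0173), but the call was lost without BIX replicate 1 (adjusted p = 0.186) or DMSO replicate 1 (adjusted p = 0.225). H4C12 had 30 and 22 counts under DMSO and none in either BIX library, which is at least 6.56-fold lower against a floor of 3 counts per library. This was the lower call (adjusted p = 6.35e-05). The same gene had 7 and 30 counts under VXN, so its VXN replicates differed widely, unlike those under DMSO or BIX. The promoter of H4C12 differs in few bases from that of H4C11, which was not called under BIX (log2 fold change -0.23 ± 0.19, adjusted p = 0.451). These 2 genes were not summed, and how reads were divided between them is unknown, so the fall of H4C12 is uncertain. H1-10 was at 373 and 355 CPM under BIX, not called at an adjusted p of 0.230. H2BC5 showed the widest spread of the better measured members here, at 1.21 and 1.55 CPM under DMSO and 2.84 and 1.47 CPM under BIX.

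The VXN effects of the lines were set against each other by an interaction term. The difference was called for 12 of 35 members, 34.3%, beside 43.2% of all genes, 10 of them (28.6%) with the more positive effect in HT29, beside 22.9% of all genes, and 2 (5.71%) with the more negative one, beside 20.3%. The median difference of the tested members was 1.02 on the log2 scale, and that of all genes 0.054. For H2BC21 the difference was 1.20 ± 0.19 (adjusted p = 3.75e-07), for H1-2 1.13 ± 0.20 (1.58e-06), for H2AC6 1.10 ± 0.22 (2.65e-05) and for H2BC5 1.44 ± 0.33 (0.000248). H1-10 had log2 fold changes slightly above 0 in both lines, with calls that several other fits lost. Its difference of 0.028 ± 0.050 was not called (adjusted p = 0.718). H3C8 went the other way, with a difference of -1.78 ± 0.48 (adjusted p = 0.00150), being lower in HT29 and at 0.769 and 1.22 CPM under DMSO and 1.08 and 1.07 CPM under VXN in t-hESC. Without t-hESC VXN replicate 1 the number called more positive in HT29 fell to 6.

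**Figure D4:**
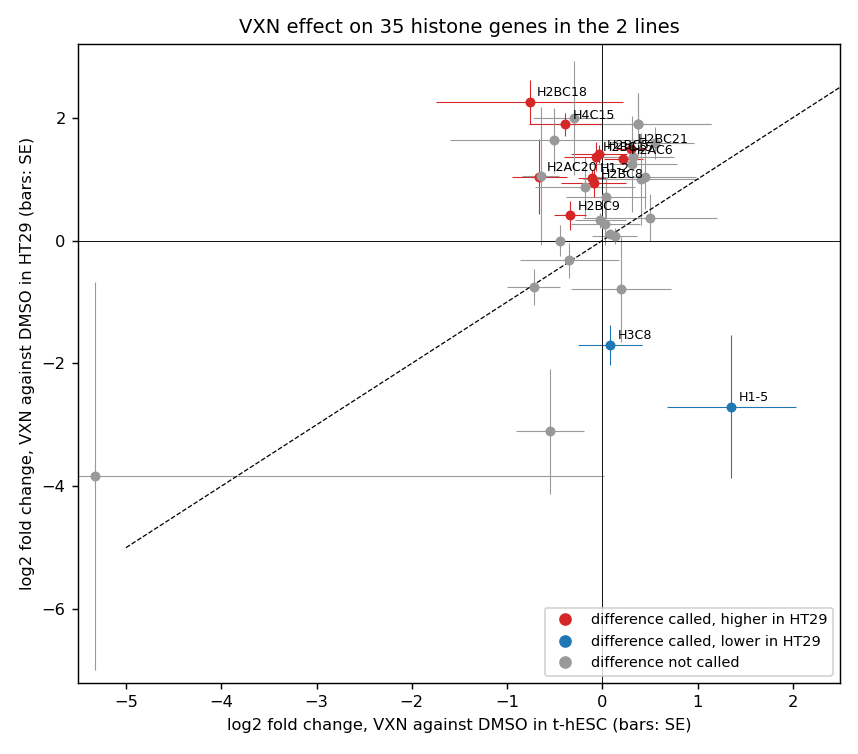
Log2 fold change under VXN in t-hESC (x axis) and in HT29 (y axis) for the 35 tested histone genes, with bars of 1 standard error; the dashed line marks equal effects, and coloured points have a called difference. The 10 red points lie above the line, H2BC21 among them at 0.30 and 1.50, and the 2 blue points, H3C8 and H1-5, lie below it.

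Under DMSO the lines differed in which histone genes they had. All 69 members summed to 214 ± 9.41 CPM in HT29 and 432 ± 0.42 CPM in t-hESC, most of it H1-10. The 68 members other than H1-10 summed to 68.3 ± 0.059 CPM in HT29 and 53.3 ± 0.48 CPM in t-hESC. In HT29, 11 of the 35 tested members were called higher and 9 lower than in t-hESC, 57.1% in all, where 84.4% of all genes were called (38.9% higher and 45.6% lower). H1-10 was lower in HT29 (152 and 139 against 379 and 379 CPM, log2 fold change -1.38 ± 0.035). H1-2 was alike in both lines, at 4.62 and 5.72 CPM and at 5.44 and 5.42 CPM. The members with the highest fold in HT29 were H3C6 (5.11 and 3.63 against 0.440 and 0.659 CPM, 2.96 ± 0.27), H2AC6 (15.2 and 14.3 against 2.36 and 3.2 CPM, 2.39 ± 0.14) and H2BC12 (7.87 and 7.05 against 1.87 and 1.46 CPM, 2.17 ± 0.18). H4C9 and H2BC5 were higher in HT29 by 1.59 ± 0.18 and 1.25 ± 0.23. In the other direction, H2BC9 was at 1.36 and 1.71 CPM in HT29 and 5.11 and 5.98 CPM in t-hESC (-1.86 ± 0.19), H2AC20 at 0.247 and 0.0854 against 1.98 and 1.98 CPM (-3.51 ± 0.41), and H2AC11 at 1.52 and 1.62 against 3.13 and 4.0 CPM (-1.19 ± 0.21). H4C11 had 1 count in each HT29 DMSO library and 77 and 110 counts in t-hESC (adjusted p = 2.58e-22). For each gene with a call named so far in this comparison, no HT29 library overlapped a t-hESC library. Calls of H2AC13, H2BC18, H2BC8, H3C8 and H4C5 were each lost without 1 or more single libraries. H2AC13 and H2BC18 lost theirs without any one of 7 and 6 libraries, at adjusted p-values of 0.0510 to 0.298 and 0.0505 to 0.332. H2BC8 lost it without HT29 DMSO replicate 1 or t-hESC DMSO replicate 2 (0.138 and 0.371), H4C5 without HT29 DMSO replicate 2 or t-hESC DMSO replicate 2 (0.0912 and 0.0953), and H3C8 without HT29 DMSO replicate 1, HT29 DMSO replicate 2 or t-hESC DMSO replicate 1 (0.0663, 0.0711 and 0.259).

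Ranked over the 5 groups, H1-10 was higher in t-hESC: all 6 t-hESC libraries were between 355 and 402 CPM and all 4 HT29 libraries between 139 and 158 CPM. H2AC6 had the reverse order of lines, HT29 under VXN, HT29 under DMSO, and then the t-hESC groups, between 2.36 and 4.54 CPM, in which DMSO and VXN overlap. H1-2 and H2BC21 were alike in HT29 under DMSO and in the 3 t-hESC groups, 4.62 to 5.8 CPM and 4.14 to 6.23 CPM, and stood apart only in HT29 under VXN.

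The members were also split by their span and by their overlap with other genes. Of the members, 11 have a RefSeq span over 1000 bases, and 58 are shorter, the longest of them 797 bases. In HT29 under VXN, 7 of the 8 tested long members were called higher and 1 was not called, with a median log2 fold change of 1.38, and of the 27 tested short members 8 were called higher and 4 lower, with a median of 0.93. These splits were made after the data had been seen and carry no test. Of the 8 tested members whose span overlaps another gene, 7 were called higher, and the kit does not mark strand, so reads from both strands count alike. The 27 that overlap no other gene had 8 higher and 4 lower calls and a median of 0.93. Of all tested genes, 33% were called higher in this comparison. The sets share genes: H2BC18, H4C15, H1-10, H2BC5 and H2BC12 are both long and overlapping. H2BC4, H2BC5, H2BC12 and H2BC21 are both long and known to give polyadenylated mRNA, so these are not separate patterns. H4C15 spans H2BC20P, a pseudogene that was at 16.4 and 16.3 CPM in HT29 under DMSO and 26.0 and 24.8 CPM under VXN, and H2AC19 and H3C15, so its counts are uncertain. H2BC18 overlaps FCGR1A, which had 0 or 1 count in each library. H1-10 overlaps its antisense gene H1-10-AS1, at 44.5 and 45.9 CPM in HT29 under DMSO and 141 and 137 CPM in t-hESC under DMSO, so the 2 cannot be told apart in these libraries.

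Many H2A and H2B genes share a start region in opposite directions, at distances of 194 to 248 bases. In HT29 under VXN the pair of H2BC21 and H2AC20 had log2 fold changes of 1.50 ± 0.11 and 1.04 ± 0.61, that of H2BC4 and H2AC6 0.70 ± 0.34 and 1.32 ± 0.077, that of H2BC8 and H2AC8 0.93 ± 0.22 and 0.87 ± 0.49, and that of H2BC15 and H2AC15 1.36 ± 0.24 and 1.03 ± 0.51. In each of these 4 pairs both values were above 0 and 1 member was called. In the fifth pair with both members tested, H2BC11 was at -0.32 ± 0.28 and H2AC11 at 0.00015 ± 0.25, and neither was called. Between the lines a shared start did not go with a shared direction in every pair: H2BC11 was higher in HT29 by 1.59 ± 0.36, and H2AC11, 248 bases away, was at -1.19 ± 0.21.

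Genes that copy DNA and handle new histones were mostly called lower in HT29 under VXN. Of all tested genes, 26.9% were called lower and 33% higher in this comparison, which is the share to set beside each list below. All 32 genes of the list for the G1/S transition and DNA replication were called lower under VXN, with a median log2 fold change of -2.21. MCM4, part of the replicative helicase, was at 293 and 288 CPM under DMSO and 48.1 and 46.6 CPM under VXN, and RRM2, a subunit of ribonucleotide reductase, at 241 and 245 CPM and 38.1 and 36.3 CPM. Of 25 histone chaperones 20 were called lower and 2 higher, with a median of -0.66. NASP, which holds the soluble pool of H3 and H4, fell by 1.86 on the log2 scale, and ASF1B, an H3-H4 chaperone of proliferating cells, fell by 2.64. Of 19 genes for histone transcription and 3′ processing 13 were called lower and 4 higher, with a median of -0.47. SLBP, which binds the stem-loop of replication-dependent histone mRNA, was at 109 and 108 CPM under DMSO and 60.9 and 61.4 CPM under VXN, and CDK2, the kinase of cyclin E, fell by 1.47. Of 12 tested genes listed as replacement histone variants, 7 were called lower and 1 higher, with a median of -0.40. How the mRNA of each gene on this list ends was not examined, nor was whether each one, H2AW among them, is a replacement variant. H2AX, the variant phosphorylated at DNA breaks, was at 182 and 169 CPM under DMSO and 54.5 and 55.3 CPM under VXN, H2AZ1 fell by 1.18 and H3-3A by 1.23, while H2AW rose from 9.07 and 8.88 CPM to 23.5 and 22.4 CPM. Whether the fall in these genes bears on the histone members was not tested.

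In t-hESC the log2 fold changes of the same lists were nearer 0. The difference of the VXN effects was called for 32 of 32 replication genes, beside 43.2% of all genes. Of all tested genes in t-hESC, 14.6% were called lower and 14.5% higher under VXN, and 12.2% lower and 10.9% higher under BIX. Under VXN 30 of 32 replication genes were called lower (median -0.39, MCM4 at -0.63 ± 0.032), and under BIX 27 were called lower and 1 higher (median -0.27, MCM6 at -0.40 ± 0.037). Chaperones had 15 lower and 5 higher calls under VXN and 14 lower and 5 higher under BIX, with NASP at -0.42 ± 0.028 under VXN and CABIN1, a subunit of the HIRA complex, at 0.44 ± 0.040 under BIX. The transcription and processing list had 8 lower calls under each compound, with 2 higher under VXN and 1 under BIX, and SLBP was at -0.27 ± 0.054 under BIX. The genes listed as replacement variants had 5 lower calls under each compound, with 1 higher under VXN and 0 under BIX. MACROH2A1 was among the lower ones, at -0.38 ± 0.036 under VXN and -0.20 ± 0.037 under BIX. The 7 tested RNAs without a poly(A) tail had adjusted p-values of 0.0760 or more under VXN and of 0.527 or more under BIX.

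The authors' deposited table for VXN in HT29 called 8 of the 15 members called higher here, and 1 of the 4 called lower, H3C8. In the authors' deposited table H2AC6 had a log2 fold change of 1.18. The deposited values are not the same measure as those here. For H2AC6 under BIX in t-hESC the deposited value was 0.074, beside 0.61 here. For VXN in HT29, H3C14 and H3C15 had deposited values of 1.06 and 0.29, though their counts used here were equal. The other 7 higher and 3 lower members were not called in the authors' deposited table. For t-hESC, the authors' deposited tables called none of the members called here: H2AC6 under BIX and H1-10 under VXN were not called, and H4C12, H4C11 and H3C10 had no adjusted p.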

How the data were processed

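RNA of 10 libraries, 2 in each of 5 groups, had been made into TruSeq RNA v2 libraries, per the labels' protocols. The submitters' processing notes list, without roles, fastp (0.20.1), FastQC (0.11.9), the aligner STAR, DESeq2 (1.34.0) and the build GRCh38. No source used here names the counting program, so the treatment of reads that fit several histone copies or overlapping genes is unknown. The authors deposited raw counts for 60651 genes and 1181 repeat families. Another 4 columns match no sample and were not used. The authors also deposited tables of log2 fold changes with standard errors and adjusted p-values, quoted only as theirs.

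The gene counts, without repeat families, were scaled by TMM in edgeR 4.0.16 (R 4.3.3). After filterByExpr at a minimum of 10 counts, 22495 genes were tested by the quasi-likelihood F test, robust, with the 10 libraries in one model. P-values were adjusted by Benjamini-Hochberg over these genes, and an adjusted p under 0.05 is a call. The standard error is the fold change over the root of F. Alternatives were other scaling factors, DESeq2 1.42.0, other count filters, a fit to the compared groups alone, a block for the replicate number, and leaving out each library. Sums of near-identical copies and splits by span and overlap were added after the data were seen.

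The members and the lists were chosen with earlier results of these data known. An item that meets the naming rule is not reported here and is in none of the counts of members, though its row stayed in the fit; every other member is accounted for. Named were members with a group mean of at least 5 CPM, the 3 highest of each class, H1-10, the 5 highest and 5 lowest called members of a comparison, and up to 4 genes of each list by smallest p. Other called members, H4C12 and members of copy or start pairs were named after their values were seen. Figures were drawn with matplotlib 3.10.9.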

Additional observations from a re-analysis of the deposited data

Results flagged for a closer look

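For 12 members the effect of VXN differed between HT29 and t-hESC by the interaction term (edgeR quasi-likelihood F test, adjusted over all genes). The difference of the log2 fold changes, HT29 minus t-hESC, was 3.02 ± 1.08 (SE) for H2BC18 (adjusted p = 0.0180), 2.28 ± 0.43 for H4C15 (1.70e-05), 1.70 ± 0.68 for H2AC20 (0.0351), 1.44 ± 0.33 for H2BC5 (0.000248) and 1.44 ± 0.41 for H2BC15 (0.00269). It was 1.20 ± 0.19 for H2BC21 (3.75e-07), 1.13 ± 0.20 for H1-2 (1.58e-06), 1.10 ± 0.22 for H2AC6 (2.65e-05), 1.02 ± 0.41 for H2BC8 (0.0354) and 0.75 ± 0.29 for H2BC9 (0.0305). In the other direction it was -1.78 ± 0.48 for H3C8 (0.00150) and -4.06 ± 1.335 for H1-5 (0.00989).

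The counts behind several of these are small. In t-hESC, H2BC18 had 4 and 2 counts under DMSO and 1 and 2 under VXN, and H1-5 had 4 and 3 under DMSO and 6 and 10 under VXN. H4C15 had 24 and 21 counts under DMSO and 25 and 5 under VXN in t-hESC, and its sum with the copy H4C14 had a difference of 2.05 ± 0.38. The difference was not called for H2BC18 without t-hESC DMSO replicate 1 (adjusted p = 0.249) or VXN replicate 1 (0.0672), nor for H2BC15 without t-hESC DMSO replicate 2 (0.128). For H1-5 the call was lost without HT29 VXN replicate 1 (adjusted p = 0.0892) or t-hESC VXN replicate 2 (0.0508). H2AC20, H2BC8 and H2BC9 lost it without any one of 6, 4 and 4 libraries, at adjusted p-values of 0.0520 to 0.224, 0.0752 to 0.287 and 0.0549 to 0.463. H2BC5, H2BC21, H1-2, H2AC6, H4C15 and H3C8 were called without each single library.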

How the results depend on the processing

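Over all alternatives run, no tested member that was called changed its direction. With upper-quartile factors 0 members were called higher under VXN in t-hESC. DESeq2 called 9 higher and 1 lower under VXN in HT29, 5 higher and 0 lower for the difference between the lines, 0 higher and 0 lower under VXN in t-hESC, 0 lower under BIX and 7 higher between the lines. It leaves sparse genes without an adjusted p, so that 4 members had one under BIX, 13 under VXN in t-hESC, 28 for the difference, 40 in HT29 and 49 between the lines. Without a count filter 0 were higher and 1 lower under VXN in t-hESC. A minimum count of 50 leaves 14 members, of which 0 were lower under BIX, 1 under VXN in t-hESC, 0 under VXN in HT29, 0 for the difference, and 4 were lower and 7 higher between the lines. A fit to the compared groups alone gave 1 lower under VXN in t-hESC, 2 in HT29 and 1 for the difference. Leaving out each library gave 0 to 3 higher under BIX, 0 to 1 higher and 1 to 3 lower under VXN in t-hESC, 12 to 16 higher and 1 to 4 lower in HT29, 6 to 13 higher and 1 to 3 lower for the difference, and 8 to 12 higher and 8 to 10 lower between the lines. The cause of these shifts was not tested, beside the fewer members tested.

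Same-numbered libraries of different groups did not deviate together (correlations of -0.032 to 0.026). This cannot show whether they shared a day or a culture. With the replicate number as a block, 16 members were higher and 4 lower under VXN in HT29, 1 and 2 under VXN in t-hESC, 1 and 1 under BIX, 10 and 2 for the difference, and 10 and 8 between the lines.

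As shares of gene counts, without TMM, the ratio of summed levels under VXN in HT29 was 1.04 for H1, 1.84 for H2B and 1.88 for the 68 members other than H1-10. Under VXN in t-hESC it was 1.08 for H1 and 0.938 for the 68, under BIX 1.06 for the 68, and between the lines 1.30 for H2B and 1.27 for the 68. Over members that overlap no other gene, the ratio under VXN in HT29 was 1.97 for H1, 2.10 for H2B and 2.06 for H4, under VXN in t-hESC 1.01 for H1 and under BIX 1.08 for H1. Between the lines it was 0.896 for H1, 0.862 for H2B, 0.172 for H4 and 1.02 for the 68, so the H2B and H4 sums and, under BIX, the H1 sum turned direction; this choice leaves out H1-10 from H1.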

Other observations

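Several sparse members that did not reach the test had their counts mostly in one line. H3C2, a gene for the H3.1 form of the protein, had 0 and 1 counts in HT29 under DMSO, 2 and 0 under VXN, and 8 and 7 in t-hESC under DMSO, 7 and 3 under BIX and 6 and 7 under VXN. H3C7 had 1 and 0 counts in HT29 under DMSO, 1 and 0 under VXN, and 4 and 10, 4 and 2, and 5 and 4 in the same t-hESC groups. The linker gene H1-3 was the reverse, with 4 and 2 counts in HT29 under DMSO, 5 and 8 under VXN and 0 to 3 in each t-hESC library. These genes lie near the limit that 3 counts set, were chosen here after their values were seen, and their differences were not tested.

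Among other tested members, H2BC6 lay at 0.641 to 1.26 CPM over the libraries and was called in no comparison by edgeR. H2BC7 was at 0.124 and 0.128 CPM in HT29 under DMSO, 0.262 and 0.253 CPM under VXN and 0.179 to 0.694 CPM in t-hESC. H2AC15 was at 0.288 and 0.256 CPM in HT29 under DMSO and 0.525 and 0.608 CPM under VXN. In t-hESC it was at 1.2 and 0.514 CPM under BIX against 0.385 and 0.377 CPM under DMSO, so that the BIX libraries lay farther apart than their mean lay from that of DMSO. Neither H2BC7 nor H2AC15 was called in these treatment comparisons by edgeR.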
